A study of Mus musculus with 2 samples.

Results

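The entries described here are those named miR-378, miR-320, miR-338 or miR-210, with any letter and either arm, under a human or a mouse prefix. By name they run from hsa-miR-378a-3p, the most abundant, to hsa-miR-338-3p and hsa-miR-210-3p, which are scarce, and the prefix is left out below except for mouse names. They number 22 of the 1018 small RNA entries listed and of the 851 entries with a miRNA name, and comprise 13 miR-378, 5 miR-320, 2 miR-338 and 2 miR-210 entries. The libraries hold RNA of the mitochondrial fraction of mouse heart, 1 from a control group and 1 after treatment with STZ, or streptozotocin, which kills insulin-secreting beta cells and so makes mice diabetic. The labels give no strain, age, sex, dose or time after STZ, and do not say whether animals were pooled. The study's title concerns Ago2, the Argonaute protein that carries miRNAs, in diabetic heart disease, and neither label names a change of Ago2. With 1 library per group no difference has a replicate check, no test of the treatment is possible, and every "higher" or "lower" below compares these libraries.

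miRNAs are small RNAs cut from a hairpin precursor, whose 5p and 3p arms can each be loaded into an Argonaute protein to repress messages that pair with the seed, bases 2 to 8 of the miRNA. The miR-378a precursor lies in an intron of Ppargc1b, which encodes PGC-1beta, a coactivator of mitochondrial biogenesis and fat oxidation, and it is abundant in heart and skeletal muscle. miR-210 is induced by hypoxia-inducible factor and represses the iron-sulfur cluster scaffold ISCU and thereby mitochondrial respiration. miR-338-3p was described in rat axons as a repressor of the nuclear-encoded cytochrome oxidase subunit Cox4i1, and miR-320 has been studied in the ischaemic and diabetic mouse heart.

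The mouse mature sequences that RefSeq gives for these families on GRCm38.p6 show how near some of these miRNAs are in their letters, and 7 matched by miRNA name, while miR-378a and miR-320 are named only. They are written 5′ to 3′ with the seed in capitals. The deposited values stand mostly under human names, and human mature sequences were not compared here, so of the miR-378 entries with reads the letters are shown for the mouse-named miR-378d alone.
mmu-miR-378b (chr11:88352839-88352858, plus strand): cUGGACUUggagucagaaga
mmu-miR-378c (chr14:46954905-46954925, minus strand): aCUGGACUuggagucagaagc
mmu-miR-378d (chr10:126710355-126710376, minus strand): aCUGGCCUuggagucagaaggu
mmu-miR-338-5p (chr11:120014816-120014837, minus strand): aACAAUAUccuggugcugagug
mmu-miR-338-3p (chr11:120014781-120014802, minus strand): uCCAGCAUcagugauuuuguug
mmu-miR-210-3p (chr7:141221407-141221428, minus strand): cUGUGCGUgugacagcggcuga
mmu-miR-210-5p (chr7:141221445-141221466, minus strand): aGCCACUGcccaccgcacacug

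Among the miR-378 sequences, mouse miR-378b and miR-378c share an unbroken run of 19 bases that starts at base 1 of miR-378b and at base 2 of miR-378c, so the window of bases 2 to 8 is shifted between them. Mouse miR-378d differs from miR-378c by A6C, inside the seed, and by C21G, with positions counted from the 5′ end of miR-378c. It is also longer, at 22 bases against 21 for miR-378c. Its longest shared run with either is 14 bases. Reads of near-identical sequences can be split between entries by the authors' matching, whose rules the sources used here leave unstated, so the values of single miR-378 letters are uncertain in this respect. Mouse loci are given below for miR-378a, miR-378b, miR-378c and miR-378d alone. The other letters stand under human names and need not be separate mouse miRNAs. The 7 sequences carry 7 different seeds.

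Whole reads recovered from the deposited normalised values totalled 508182 for the control and 706860 for STZ. Levels are in RPM, reads scaled to a common total of 1000000, and 1 read equals 1.97 RPM in the control and 1.41 RPM in that of STZ. Ratios have exact 95% intervals for the error of counting alone; as the protocols mention no molecular identifiers, reads copied by PCR may come from the same molecule. Cardiomyocyte miRNAs (miR-1-3p, miR-133a-3p, miR-208a-3p and miR-499a-5p) were all detected and summed to 28.0% of control and 31.5% of STZ reads, with miR-1-3p at a ratio of 1.21 and miR-133a-3p (0.866) and miR-208a-3p (0.498) below 1, and no listed entry marks mitochondria themselves. Markers of other cells differed between the libraries, with the 2 endothelial miRNAs summing to 66130 RPM in the control and 43489 RPM under STZ, the 4 erythroid ones to 12925 and 9375, the 5 leukocyte ones to 2771 and 2201, the 3 smooth muscle and fibroblast ones to 61905 and 52132, and liver miR-122-5p at 787 and 73.6. Within the leukocyte list the ratio was above 1 for miR-155-5p (1.61) and miR-142-5p (1.29, 0.947 to 1.76), and likewise for miR-214-3p (1.56) among the smooth muscle and fibroblast miRNAs. None of these markers was at 0 in both libraries, and their part in the results below was not tested.

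The 22 entries together held 13248 control reads (2.61% of the library) and 19176 STZ reads (2.71%). Of them, 14 had reads in both libraries, 1 in the control alone, 4 in the STZ library alone, and 3 (miR-320c, miR-210-5p and the mouse-named miR-378c) in neither. A count of 0 allows up to 5.90 RPM in the control and 4.24 RPM under STZ, taking 3 reads as the limit.

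**Figure D1:**
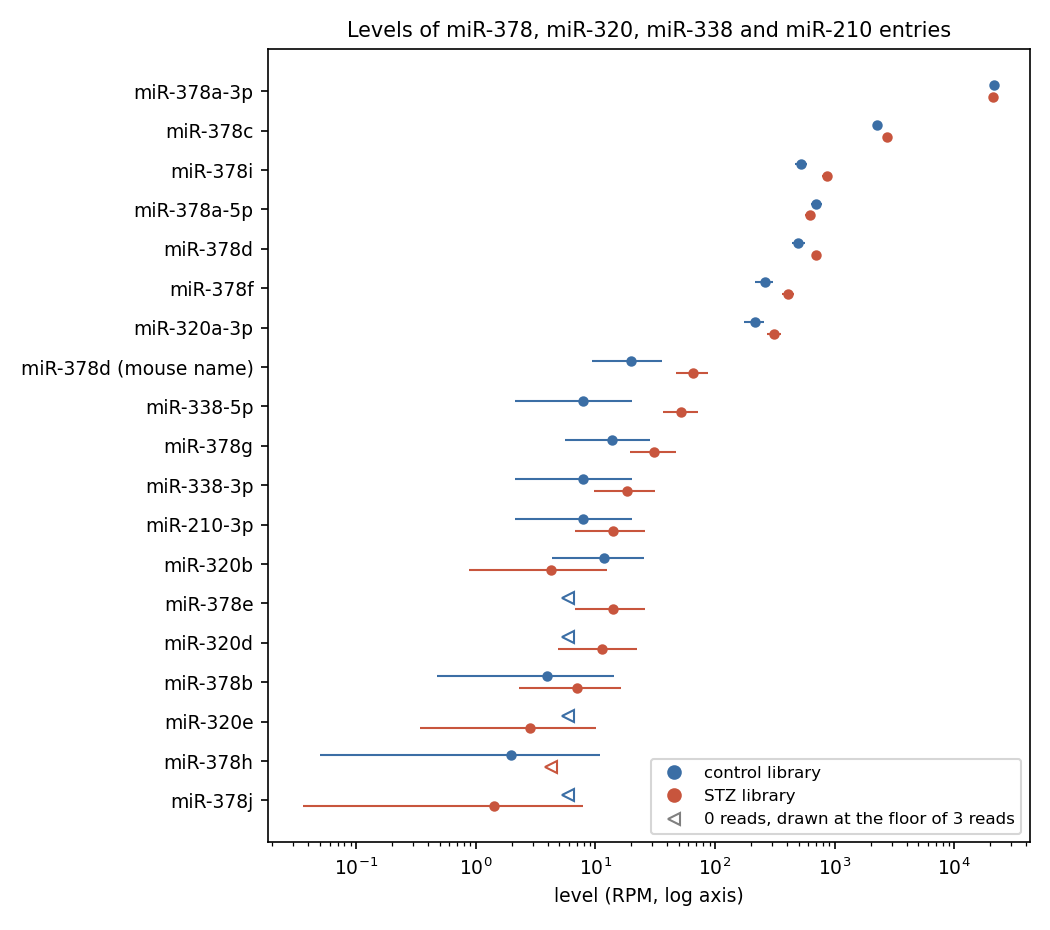
Level in RPM (log axis) of the 19 entries with any read, with exact 95% Poisson intervals for counting error, in the control (blue) and the STZ library (red); open triangles mark 0 reads, drawn at the limit of 3 reads. miR-378a-3p stands at 21543 and 21242 RPM, while miR-338-5p stands at 7.87 and 52.3 RPM with intervals that do not overlap.

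The main strand of miR-378a stood at nearly the same level in the control and STZ libraries. Of its lettered relatives, the 6 entries with a mean of at least 10 RPM all had STZ to control ratios above 1. Of these, 5 had an interval above 1, against 29.9% of all 314 named entries past that minimum. The 6 count miR-378d under both prefixes and may share reads of near-identical sequence. miR-378a-3p had 10948 control reads (21543 RPM, 21142 to 21951) and 15015 STZ reads (21242 RPM, 20903 to 21584). It ranked 11 among the named entries of each library. Its STZ to control ratio was 0.986 (0.962 to 1.01), an interval that included 1. The 3 named miRNAs nearest to it in mean level had ratios of 0.686 (miR-24-3p), 0.973 (miR-23a-3p) and 1.70 (miR-125b-5p), so neighbours at this depth did differ between the libraries.

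The opposite strand, miR-378a-5p, had 356 control reads (701 RPM, 630 to 777) and 442 STZ reads (625 RPM, 568 to 686). In human cells this arm was described as a repressor of the estrogen-related receptor gamma. Its ratio of 0.893 (0.775 to 1.03) had an interval that included 1. The 3p arm made up 96.9% of miR-378a reads in the control (Wilson 95% interval 96.5 to 97.2) and 97.1% under STZ (96.9 to 97.4). The odds ratio of the arms, 3p to 5p, STZ over control, was 1.10 (0.956 to 1.28), a comparison that the scaling between libraries cannot alter. By the mouse annotation on GRCm38, Mir378a lies on chromosome 18 at 61397835 to 61397900, on the minus strand in an intron of Ppargc1b, and a predicted miRNA gene, Gm25301, overlaps it on the other strand. The sources used here do not say whether the authors' counting used strand.

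Most abundant among the lettered relatives was miR-378c, with 1146 control reads (2255 RPM, 2126 to 2390) and 1950 STZ reads (2759 RPM, 2638 to 2884), a ratio of 1.22 (1.14 to 1.32). miR-378i had 267 and 606 reads (525 and 857 RPM), a ratio of 1.63 (1.41 to 1.89). miR-378d, under its human name, had 252 and 496 reads (496 and 702 RPM), a ratio of 1.42 (1.21 to 1.65). These 3 entries were higher in the STZ library, each by less than 2-fold.

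miR-378f had 132 and 289 reads (260 and 409 RPM), a ratio of 1.57 (1.28 to 1.95), and so lay in the same direction. The mouse-named miR-378d had 10 and 46 reads (19.7 and 65.1 RPM), a ratio of 3.31 (1.65 to 7.35). Its letters are those printed above with the A6C change. miR-378g had 7 and 22 reads (13.8 and 31.1 RPM), and the interval of its ratio of 2.26 (0.932 to 6.26) included 1. Added by name, the human-named and mouse-named miR-378d entries had 262 and 542 reads, a ratio of 1.49 (1.28 to 1.73). Their sequences were not compared, so this sum need not describe a single miRNA.

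Because they can be read against miR-378a-3p of the same library, the relatives can be compared without any scaling. For every 1000 reads of miR-378a-3p there were 166 reads of all entries other than miR-378a in the control and 228 under STZ, an odds ratio of 1.37 (1.29 to 1.46). By entry this odds ratio was 1.24 (1.15 to 1.34) for miR-378c, 1.65 (1.43 to 1.92) for miR-378i, 1.44 (1.23 to 1.68) for miR-378d and 1.60 (1.29 to 1.98) for miR-378f. It was 0.905 (0.784 to 1.05) for the miR-378a-5p arm. The intervals of the lettered entries with at least 100 reads thus all lay above 1, while that of the arm of the same precursor included 1. Among the 3 miRNAs nearest in mean level to each, the STZ to control ratios ran from 0.983 to 1.32 for miR-378c, from 0.408 to 1.24 for miR-378i, from 0.886 to 1.17 for miR-378d, from 0.656 to 2.04 for miR-378f and from 0.408 to 1.502 for miR-378a-5p.

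The lettered entries also differed among themselves to some extent, though miR-378f and miR-378i have no mouse locus given here and need not be separate mouse miRNAs. Of the 6 pairs among miR-378c, miR-378d, miR-378f and miR-378i, 2 had an odds ratio whose interval excluded 1, those of miR-378i against miR-378c (1.33, 1.13 to 1.57) and of miR-378f against miR-378c (1.29, 1.03 to 1.61), with no adjustment for the number of pairs. The other 4 pairs had intervals that included 1, for example 1.04 (0.799 to 1.34) for miR-378i against miR-378f.

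**Figure D2:**
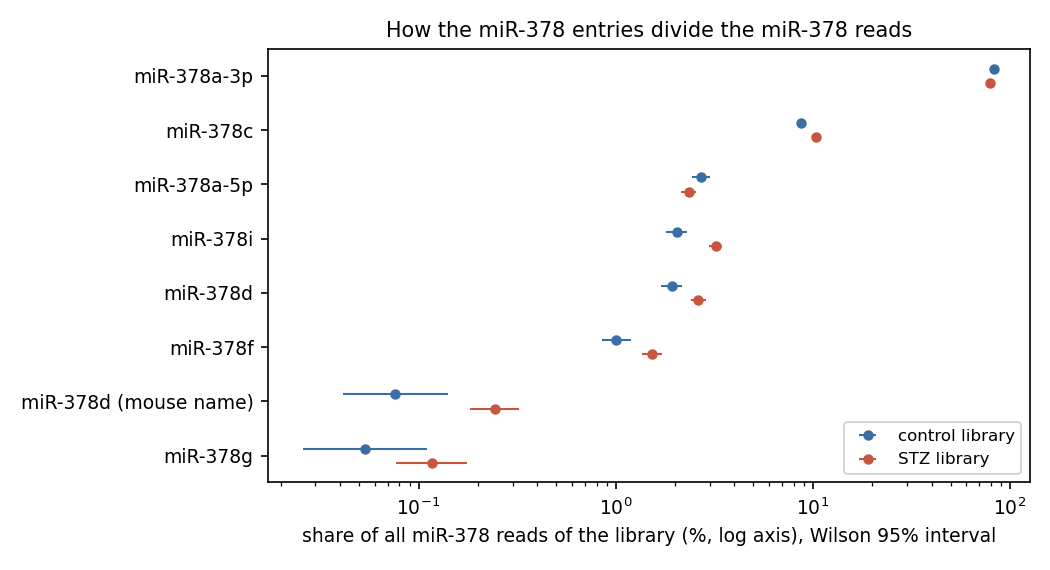
Share of all miR-378 reads of a library (percent, log axis) for the 8 miR-378 entries whose mean reached 10 RPM, with Wilson 95% intervals for counting error, control in blue and STZ in red. miR-378a-3p took 83.4% of miR-378 reads in the control and 79.5% under STZ, and miR-378c took 8.73% and 10.3%.

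As a share of miR-378 reads, with the higher entry kept where a name occurs under both prefixes, the relatives other than miR-378a made up 13.8% in the control (13.2 to 14.4) and 17.9% under STZ (17.4 to 18.5). miR-378a-3p took 83.4% (82.8 to 84.1) and 79.5% (78.9 to 80.1) of all miR-378 reads. Summed, the family stood at 25800 RPM in the control and 26647 RPM under STZ, a ratio of 1.03 (1.01 to 1.06).

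The remaining miR-378 names rested on 10 reads or fewer over both libraries. miR-378e had 0 control reads and 10 STZ reads (14.1 RPM), at least 2.40-fold higher against a floor of 3 control reads. miR-378b had 2 and 5 reads, a ratio of 1.80 (0.294 to 18.9). miR-378h had 1 and 0 reads and miR-378j 0 and 1, too few for a fold. On GRCm38, Mir378b lies on chromosome 11 at 88352773 to 88352864 within an intron of Msi2 and Mir378c on chromosome 14 at 46954830 to 46954928 within an intron of Samd4, each on the strand opposite to that gene. Mir378d, on chromosome 10 at 126710282 to 126710391, overlaps no other annotated gene.

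In the miR-320 group, nearly all reads stood under miR-320a-3p, which was higher in the STZ library by less than 2-fold. It had 109 control reads (214 RPM, 176 to 259) and 221 STZ reads (313 RPM, 273 to 357), a ratio of 1.46 (1.15 to 1.85). In the ischaemic mouse heart miR-320 was described as a repressor of the small heat shock protein Hspb6. Its 3 nearest miRNAs by mean level had ratios of 0.923 (miR-208a-5p), 0.983 (miR-361-5p) and 0.523 (miR-151a-3p), all below that of miR-320a-3p.

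The other miR-320 forms, all under human names, were scarce. miR-320b had 6 control and 3 STZ reads, 11.8 and 4.24 RPM, and its ratio of 0.359 had an interval of 0.0582 to 1.68. miR-320d had 0 and 8 reads (11.3 RPM in the STZ library), at least 1.92-fold higher against the floor. miR-320e had 0 and 2 reads, too few for a fold. Forms other than miR-320a made up 5.22% of miR-320 reads in the control (2.41 to 10.9) and 5.56% under STZ (3.28 to 9.27), shares whose intervals overlap. The mouse gene Mir320 lies on chromosome 14 at 70443510 to 70443591 on GRCm38, 63 bases from Polr3d, a subunit gene of RNA polymerase III on the other strand. No other mouse miR-320 locus is given here, so the forms other than miR-320a need not be separate mouse miRNAs.

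Among the entries described here with reads in both libraries, miR-338-5p had the largest ratio. This is the arm opposite to the miR-338-3p of the mitochondrial literature. miR-338-5p had 4 control reads (7.87 RPM, 2.14 to 20.2) and 37 STZ reads (52.3 RPM, 36.9 to 72.1), a ratio of 6.65 (2.39 to 25.7). It moved from rank 310 of 393 detected named entries in the control to rank 184 of 407 in the STZ library. miR-338-3p had 4 control reads (7.87 RPM, 2.14 to 20.2) and 13 STZ reads (18.4 RPM, 9.79 to 31.4). Its ratio of 2.34 (0.722 to 9.84) had an interval that included 1, so a difference was not detectable at this depth.

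Both arms of miR-338 together had 8 control reads and 50 STZ reads, a ratio of 4.49 (2.11 to 11.0). The 3p arm made up 50.0% of miR-338 reads in the control (21.5 to 78.5) and 26.0% under STZ (15.9 to 39.6). The odds ratio of 3p to 5p, STZ over control, was 0.359 (0.0575 to 2.22), so the arms were not distinguishable in their change. As printed above, the arms carry different seeds, ACAAUAU in the 5p and CCAGCAU in the 3p arm. Mir338 lies on chromosome 11 at 120014765 to 120014862 on GRCm38, in an intron of Aatk, a kinase gene expressed in brain, and Mir3065 overlaps it on the other strand.

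miR-210-3p, the hypoxia-induced arm, was near the limit of detection. It had 4 control reads (7.87 RPM, 2.14 to 20.2) and 10 STZ reads (14.1 RPM, 6.78 to 26.0), and the intervals of the levels overlap. Its ratio of 1.80 (0.518 to 7.85) had an interval that included 1, so a difference was not detectable at this depth. miR-210-5p had 0 reads in both. Mir210 lies on chromosome 7 at 141221384 to 141221493 on GRCm38 and overlaps no other annotated gene.

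**Figure D3:**
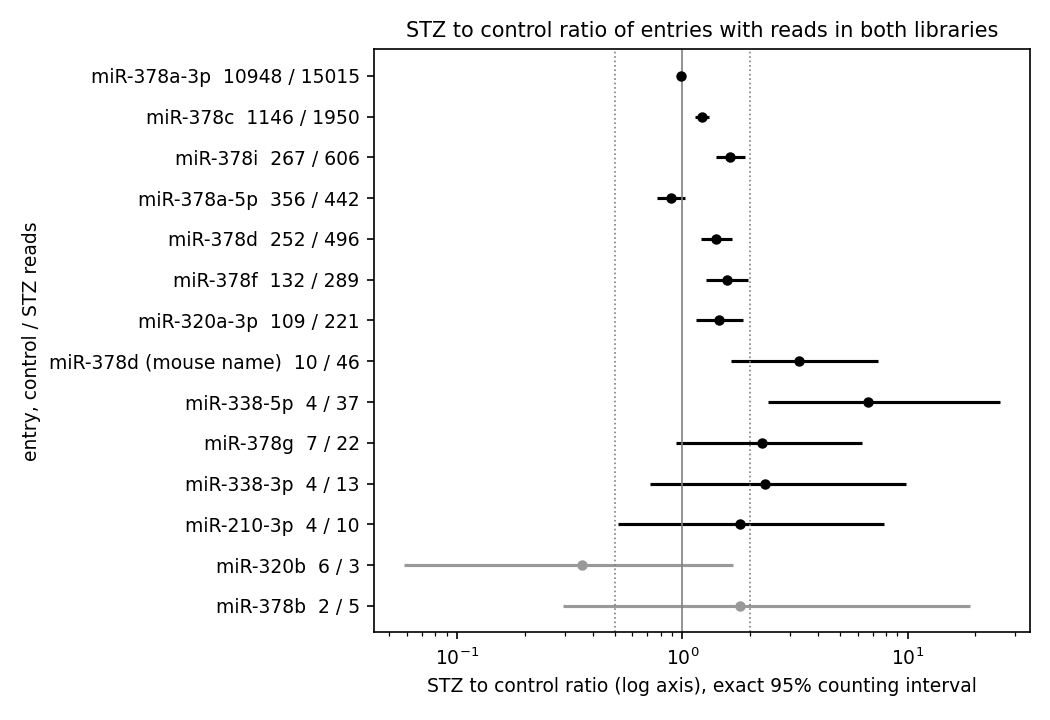
STZ to control ratio (log axis) with exact 95% counting intervals for the 14 entries with reads in both libraries, ordered by mean level, with control and STZ reads beside each name; grey points have a mean under 10 RPM, the solid line marks 1 and the dotted lines 2-fold. miR-378a-3p sits at 0.986 and miR-338-5p at 6.65, and the intervals widen as reads fall.

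By the rule used across all miRNAs, a difference of at least 2-fold on the scale of log2(RPM + 1) among named entries with a mean of at least 10 RPM, 12 of the 22 entries could be called. Of these, 4 were called higher after STZ (miR-338-5p, the mouse-named miR-378d, miR-338-3p and miR-378g), 0 lower and 8 neither. The same rule called 36.3% of the 314 named entries that passed the minimum, 17.8% as higher and 18.5% as lower. miR-338-5p, miR-338-3p and miR-210-3p passed the minimum through their STZ values, since each stood at 7.87 RPM in the control, so the count is a description of these entries.

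All calls among the members fell on entries of low read depth. The 4 entries called were among the 5 members past the minimum with under 100 reads over both libraries. In that class 61.6% of the 159 entries were called and 32.1% were called higher. The member of that class not called was miR-210-3p, with 14 reads. With at least 100 reads, 0 of 7 members and 10.3% of 155 entries were called. Of the 4 called, miR-338-5p and the mouse-named miR-378d had an interval of the ratio that excluded 1.

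Among the 12 entries, 7 had an interval of the ratio above 1, 0 below and 5 including it, against 29.9% of the 314 entries above and 35% below. The 7 include miR-338-5p, which passed the minimum through its STZ value. With at least 100 reads, 5 of 7 members had one above 1, against 32.9% of 155 entries. The miR-378 names may share reads of near-identical sequence, so they are not independent.

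**Figure D4:**
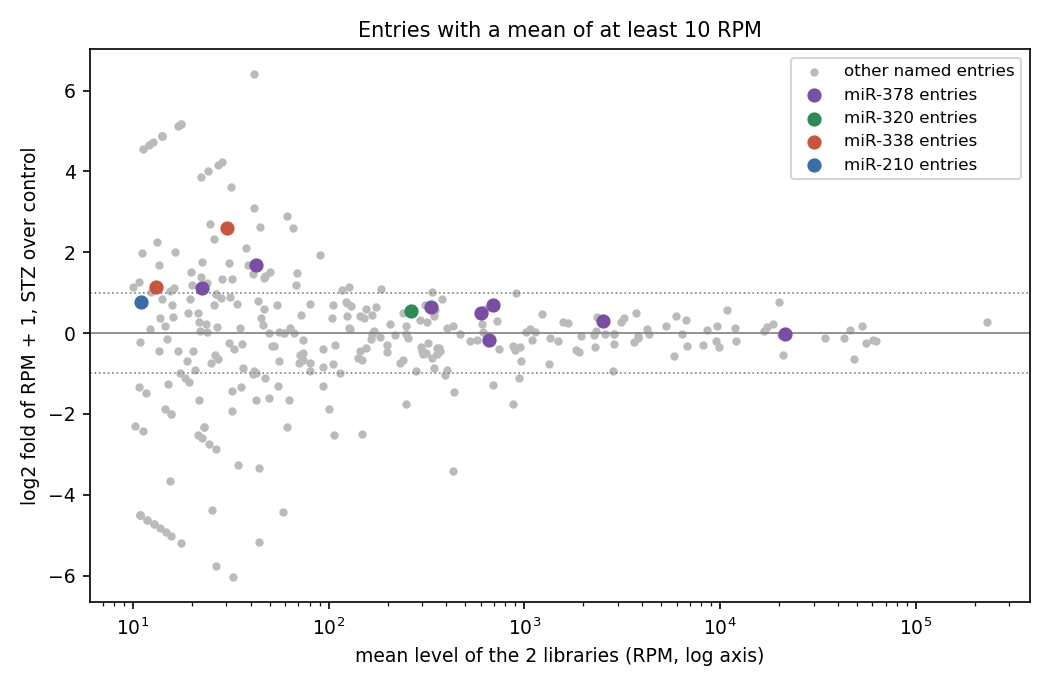
log2 fold of RPM + 1, STZ over control, against the mean level of the libraries (RPM, log axis) for the 314 named entries whose mean reached 10 RPM, with the 12 miR-378, miR-320, miR-338 and miR-210 entries in colour; dotted lines mark 2-fold. The spread of the grey points widens toward low levels, where miR-338-5p (2.59) and the mouse-named miR-378d (1.68) lie.

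Mouse-named entries with the same name as a human-named entry give a scale for the mouse-named miR-378d. They were paired by name alone, and the sequences under the names were not compared. Of 19 such entries with a mean of at least 10 RPM, 4 (21.1%) were called higher under STZ and 6 (31.6%) lower. The other 3 called higher were let-7c-5p (9 and 80 reads), miR-92a-3p (9 and 33) and miR-29a-3p (4 and 31), whose human-named entries had ratios of 1.41, 0.953 and 1.48 (chosen after their values were seen). Being chosen as high under the mouse name, they show no general order of the names, and miR-155-5p, for example, had a ratio of 0.458 under its mouse name and 1.61 under its human name.

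Other miRNAs described in mitochondria, metabolism or hypoxia were not called higher by this rule. Of their entries that passed the minimum, all but miR-494-3p and miR-375-3p had at least 100 reads over both libraries. In that class 10.3% of 155 entries were called in either direction, whereas the 4 members called higher all had under 100 reads. The lists and the members called thus differ in read depth. The shares over all 314 named entries were 17.8% higher and 18.5% lower, and with lists this short the counts of lower calls stand near that share and mark nothing particular to a list. Of 18 miRNAs described in or acting on mitochondria, 15 had an entry and all of these passed the minimum, with 0 higher, 2 lower and a median log2 fold of -0.21, led in level by muscle miR-1-3p (ratio 1.21). The lower ones were miR-146a-5p, a brake on inflammatory signalling (328 and 165 reads, ratio 0.362), and miR-494-3p. For miR-494-3p, with 11 and 0 reads, the exact interval of the ratio ran from 0 to 0.286. Of 15 miRNAs of lipid and glucose metabolism, 11 passed the minimum, with 0 higher, 2 lower (liver miR-122-5p with 400 and 52 reads, and islet miR-375-3p with 20 and 4) and a median of 0.22, led in level by miR-143-3p (ratio 0.840).

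Of 8 hypoxia-associated or ischaemia-associated miRNAs, all passed, with 0 higher and 1 lower (miR-424-5p with 93 and 22 reads, ratio 0.170). The shares over all 314 entries were 17.8% higher and 18.5% lower. All 8 had at least 100 reads, a class in which 10.3% of 155 entries were called in either direction. The list had a median of -0.12 and was led in level by miR-26a-5p (ratio 1.05). These lists share 2 miRNAs with each other, miR-21-5p and miR-107, and the median over all 314 entries was -0.02.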

How the data were processed

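Per the labels' protocols, adapters were joined to both ends of total RNA and the cDNA was PCR-amplified and gel-purified; GRCm39 was the build, per the submitters' processing notes. For the aligner, miRNA reference and trimming, nothing is given in the sources used here. The authors deposited, for each library, a signal per entry in RPM, reads scaled to a total of 1000000. The values were whole multiples of 1 read for 100.0% of entries, within 0.01 of a read. A row without a name, a subtotal equal to 96.5% and 96.6% of the totals, stayed out. The deposited normalised signal was used for calls, at least 2-fold of log2(RPM + 1) with a mean of at least 10 RPM. The recovered reads gave exact intervals: conditional binomial for ratios, Poisson for levels, conditional for odds ratios and Wilson for shares. edgeR's count test on recovered reads could not be fitted, with 0 residual degrees of freedom, so it calls no genes.

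Members, lists and rules were chosen with earlier results of these data known. The text names every member, the 3 nearest miRNAs by mean level for members with at least 100 reads (for the most abundant member and miR-320a-3p; the others by their range), and list members called or most abundant. Human and mouse entries of a list name were matched by name, with a table written after the data were seen for miR-33, miR-103 and miR-107, and the higher entry was kept. Loci and sequences are from GENCODE M21 and RefSeq on GRCm38 and were used for names, positions and letters only. Python 3.11.15, scipy 1.17.1, R 4.3.3, edgeR 4.0.16 and DESeq2 1.42.0 were used. The scripts were tested on simulated data.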

Additional observations from a re-analysis of the deposited data

How the results depend on the processing

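Of 63 alternative values, 53 stayed within the counting interval of the value reported or within 1.5 times of the count. These include the ratios of miR-378a-3p, miR-378a-5p, the summed miR-378 and miR-320 entries, miR-338-3p and miR-210-3p under TMM factors, the median of ratios, totals without the 10 most abundant miRNAs, summed human-named and mouse-named entries and pseudocounts. The miR-378a arm odds ratio and the family shares were recomputed with summed entries alone. Only the miR-378 sum and shares had a mouse-named entry with reads to add. For the other ratios, the arm odds ratio and the miR-320 shares, summing returned the main value by construction and is no check. Those repeats are among the 53. For miR-338-3p (0.722 to 9.84) and miR-210-3p (0.518 to 7.85) the counting intervals are so wide that staying within them is a weak check. With a pseudocount of 5 RPM the miR-338-3p ratio went from 2.34 to 1.82, below 2-fold. Scaling moved log2 ratios by 0.01, 0.01 and -0.01. The counts of calls depended on the minimum, the fold and the counting error. The 4 members called became 10 (8 higher, 2 lower) with no minimum level, 0 at a mean of at least 100 RPM, 7 at 1.5-fold and 1 at 4-fold. They became 2 with a pseudocount of 5 RPM, 2 with an interval required beside the fold, and 2 by a call on whole reads (at least 20 reads, 2-fold and an interval excluding 1), which was chosen after seeing the data. For all named entries the 114 calls became 266 (143 higher, 123 lower) with no minimum level. A mean of at least 100 RPM left 13 (4 higher, 9 lower) and 4-fold left 58 (26 higher, 32 lower). At 1.5-fold there were 170 (84 higher, 86 lower), and raising the pseudocount to 5 RPM gave 101 (48 higher, 53 lower). Dropping calls whose interval included 1 left 101 (48 higher, 53 lower) of all named entries, against 2 members. Whole reads gave 79 calls (42 higher, 37 lower), again against 2 members. No paired analysis was possible because there was only 1 library of each kind, and none could be left out. Depth limits the entries with few reads, such as miR-210-3p, miR-338-3p and miR-338-5p at 4 control reads each and those with fewer.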
